A study of Equus caballus with 2 samples.

Results

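The 10 genes described here are the SMAD proteins that carry the transforming growth factor β (TGF-β) signal and the proteins that restrain it: SMAD2, SMAD3, SMAD4, SMAD6, SMAD7, SKI, SKIL, TGIF1, SMURF2 and PMEPA1. They were chosen by symbol among the 21426 genes listed in each of the 2 libraries, and all 10 were found once each. Equine endometrial fibroblasts of 4 mares were grown on hydrogels coated with collagen, which were then mixed within each treatment group to make 1 droplet library. The fibroblasts were at passage 3 and came from abattoir material of mares in the mid-luteal phase with healthy or only mildly fibrotic endometria. During the final 24 h, both groups were kept in medium in which bovine serum albumin replaced fetal bovine serum. The control group received nothing else, and the TGF-β1 group received human recombinant TGF-β1 at 10 ng/ml. The comparison asks how these genes differed between fibroblasts with and without the main profibrotic cytokine. After the filters on unique molecular identifiers (UMIs, which count captured transcripts once each), genes and mitochondrial share, 3865 control cells and 4513 TGF-β1 cells remained.

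With 1 library per condition there was no replicate, so differences were neither tested nor given a p-value. The intervals in brackets are exact 95% binomial intervals and cover counting error only. They hold no variation among mares or cultures, and condition and library preparation cannot be told apart.

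TGF-β binds a pair of receptor kinases at the cell surface, and the activated receptor phosphorylates SMAD2 and SMAD3. These join SMAD4, enter the nucleus and act on target genes together with other transcription factors. The pathway also switches on its own brakes. SMAD7 and SMAD6 compete at the receptors, SKI, SKIL and TGIF1 recruit corepressors to SMADs on DNA, the ubiquitin ligase SMURF2 marks SMADs and receptors for degradation, and the membrane protein PMEPA1 holds SMAD2 and SMAD3 away from the receptor. In fibroblasts, this pathway is known for driving matrix production and the myofibroblast state.

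Depth was 210497250 UMIs over the kept control cells and 219731144 over the kept TGF-β1 cells, with medians of 50313 and 43142 UMIs per cell, and 2 barcodes occurred among the kept cells of both libraries. All 8 fibroblast markers were present, at a summed 17259 counts per 1000000 UMIs (CPM) in control cells and 16212 in TGF-β1 cells. PDGFRA and THY1 were the 2 of them that were more than 2-fold lower with TGF-β1. The 6 epithelial markers found summed to 134 CPM and 12.3 CPM, nearly all of it KRT8 (114 and 4.48 CPM) and KRT7 (19.3 and 7.04 CPM), while EPCAM, the defining epithelial surface marker, had 1 and 3 UMIs. The 5 endothelial markers summed to 1.34 and 1.38 CPM. The 5 immune markers summed to 56.6 and 52.9 CPM, mostly CD68, and PTPRC, which marks all leukocytes, had 1 and 0 UMIs. The 9 cycling markers found were all lower with TGF-β1, at 53.5 and 30.9 CPM in sum. With the cycling-like cluster described below left out, the log2 ratios of PMEPA1, SMAD7 and SMAD3 were 2.14, 1.04 and -0.68, against 2.13, 1.05 and -0.70 with it. In clusters 0, 1 and 2, which KRT7 and KRT8 do not lead, PMEPA1 had log2 ratios of 2.23, 2.21 and 2.23.

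Of the 7 brakes, 6 were higher in the TGF-β1 library by more than counting error, 2 of them by more than 2-fold, and SMAD6 was the exception. Both receptor-activated SMADs were lower. At this depth a ratio beyond counting error was common, since 39.5% of the 12116 genes whose mean reached 1 CPM had an interval above 0 and 42.2% had one below 0. PMEPA1 differed most, at 4.39-fold higher (4.27 to 4.52), followed by SMAD7 at 2.07-fold (2.01 to 2.13) and SKIL at 1.65-fold (1.61 to 1.69). SMAD3 was at 61.6% of its control level and SMAD2 at 69.4%. SMAD4 and SMAD6 were within 10% of their control levels. Of the 10 genes, 2 were more than 2-fold higher and 0 more than 2-fold lower, beside 3.45% and 3.46% of those 12116 genes. At a limit of 1.5-fold, 3 genes were higher and 1 was lower, beside 7.64% and 9.36% of those genes. All 10 passed the minimum of 1 CPM. Their median log2 ratio was 0.27, beside -0.01 over all genes.

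**Figure D1:**
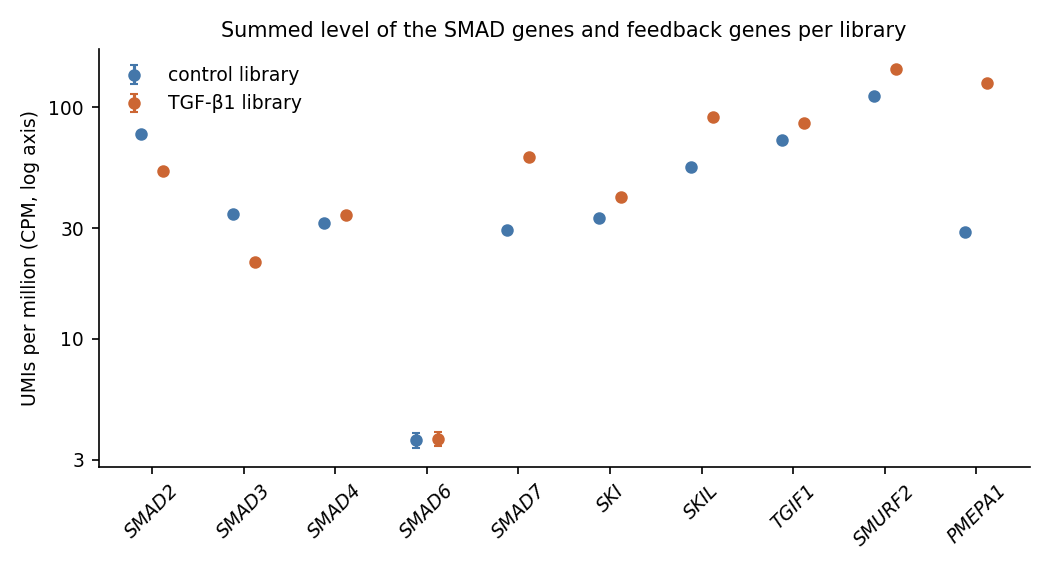
Level of each gene in the control library (blue) and the TGF-β1 library (orange), as CPM on a log axis. Each point is the sum over all kept cells of 1 library, and the bars are exact 95% intervals for counting error, smaller than the points for most genes. PMEPA1 stands at 29.0 and 127 CPM, SMAD7 at 29.5 and 61.0 CPM, and SMAD3 at 34.7 and 21.4 CPM.

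The receptor-activated SMADs were both lower with TGF-β1. SMAD2 (ENSECAG00000015132) counted 16103 UMIs or 76.5 CPM in the control library and 11670 UMIs or 53.1 CPM in the TGF-β1 library. Its log2 ratio of -0.53 (-0.56 to -0.49) lay at percentile 10.6 of all genes tested. SMAD3 (ENSECAG00000020259) counted 7310 UMIs or 34.7 CPM in control cells and 4697 UMIs or 21.4 CPM in TGF-β1 cells. Its log2 ratio of -0.70 (-0.75 to -0.65) lay at percentile 7.04. Both genes thus stood in the lower part of the distribution. The ratio of SMAD3 to SMAD2 transcripts within a library does not depend on the scaling of the libraries. Over all kept cells this ratio was 0.454 (0.442 to 0.467) without and 0.402 (0.389 to 0.416) with TGF-β1, though not lower in every cluster described below.

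SMAD4 (ENSECAG00000017857), the shared partner of the activated SMADs, counted 6668 UMIs or 31.7 CPM in control cells and 7550 UMIs or 34.4 CPM in TGF-β1 cells. Its log2 ratio was 0.12 (0.07 to 0.17), which is above 0 by more than counting error and small beside that of most of the brakes. The 3 mediators summed to 30081 UMIs without and 23917 with TGF-β1.

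The inhibitory SMADs differed from each other. SMAD7 (ENSECAG00000020583), which acts mainly on the TGF-β and activin receptors, counted 6206 UMIs or 29.5 CPM without and 13395 UMIs or 61.0 CPM with TGF-β1. Its log2 ratio of 1.05 (1.00 to 1.09) ranked 382 from the top among 12116 genes. SMAD6 (ENSECAG00000013706), which acts mainly on bone morphogenetic protein (BMP) receptors, was the scarcest of the 10, with 764 UMIs or 3.63 CPM in the control library and 811 UMIs or 3.69 CPM in the TGF-β1 library. Its log2 ratio of 0.02 had an interval that includes 0 (-0.12 to 0.17). The number of SMAD7 transcripts per SMAD6 transcript was 8.12 (7.53 to 8.77) in control cells and 16.5 (15.4 to 17.8) in TGF-β1 cells.

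All 3 nuclear corepressors were higher with TGF-β1, SKIL by the most. SKIL (ENSECAG00000010663), also called SnoN, counted 11566 UMIs or 54.9 CPM in control cells and 19918 UMIs or 90.6 CPM in TGF-β1 cells, a log2 ratio of 0.72 (0.69 to 0.76) and rank 677 from the top. SKI (ENSECAG00000012543), its closest relative, was at 33.3 CPM and 41.0 CPM, a log2 ratio of 0.30 (0.26 to 0.35). TGIF1 (ENSECAG00000011078), a homeodomain protein that binds SMADs and competes with coactivators, was at 72.3 CPM and 85.1 CPM, a log2 ratio of 0.24 (0.20 to 0.27). The ratio of SKIL to SKI transcripts was 1.65 (1.60 to 1.70) in control cells and 2.21 (2.16 to 2.27) in TGF-β1 cells, so the 2 relatives did not differ between libraries by the same factor.

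SMURF2 (ENSECAG00000011935) gave the largest UMI count of the 10 in both libraries, with 23551 UMIs or 112 CPM without and 32070 UMIs or 146 CPM with TGF-β1. Its log2 ratio was 0.38 (0.36 to 0.41). PMEPA1 (ENSECAG00000018005) counted 6096 UMIs or 29.0 CPM in the control library, and 27946 UMIs or 127 CPM in the TGF-β1 library. The assay counts transcripts from their 3′ ends, so CPM were not divided by gene length, and on this scale PMEPA1 had the largest UMI count after SMURF2 in TGF-β1 cells. Whether reads in introns were counted is not given in the sources used here, which limits such comparisons between genes. Its log2 ratio of 2.13 (2.09 to 2.17) ranked 71 from the top of 12116 genes. The 7 brakes together gave 2.34 UMIs for each mediator UMI (2.31 to 2.37) in control cells and 5.09 (5.02 to 5.17) in TGF-β1 cells, a log2 change of 1.12 (1.09 to 1.15 by a normal approximation to the counts).

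**Figure D2:**
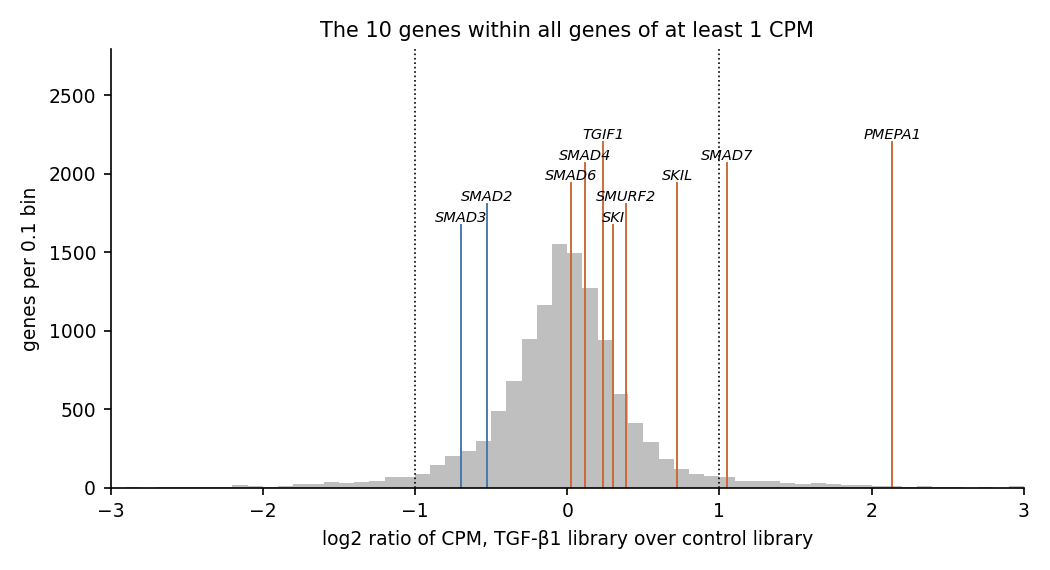
Position of the 10 genes among the 12116 genes whose mean reached 1 CPM. The grey histogram counts genes per bin of the log2 ratio of the TGF-β1 library over the control library, drawn between -3 and 3, the vertical lines mark the 10 genes, with heights chosen only to separate the names, and the dotted lines mark 2-fold. PMEPA1 at 2.13 and SMAD7 at 1.05 lie outside the dotted lines, and SMAD3 at -0.70 and SMAD2 at -0.53 are the lowest of the 10.

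Between kept cells of lower and higher depth, the size of some of these ratios differed, and all 10 kept their direction. Among kept cells with fewer than 40000 UMIs (779 control and 1753 TGF-β1 cells), the log2 ratio of SMAD2 was -0.27 (-0.36 to -0.18), while among cells with at least 40000 UMIs (3086 and 2760) it was -0.52 (-0.56 to -0.49). SMAD2 control levels were 57.4 CPM in the shallower and 79.2 CPM in the deeper cells. The log2 ratios of SMAD3 were -0.77 (-0.90 to -0.63) and -0.64 (-0.70 to -0.58), so its gap to SMAD2 was wider in the shallower cells. For TGIF1, the log2 ratio was 0.06 (-0.01 to 0.14) in the shallower and 0.25 (0.22 to 0.29) in the deeper cells, so it was smaller in the shallower cells by more than counting error, and its interval there includes 0. SMAD7 went the other way, with 1.28 (1.16 to 1.41) and 1.05 (1.00 to 1.10). PMEPA1 had 2.05 (1.94 to 2.16) and 2.16 (2.11 to 2.20), and SKIL 0.73 (0.64 to 0.82) and 0.74 (0.71 to 0.78). These bands were chosen after the data had been seen, depth per cell differs between the libraries, and the bands may also differ in their mixture of the clusters described below, which was not tested.

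Because the libraries differ in depth, a random 20000 UMIs were drawn from every kept cell. The share of cells with at least 1 PMEPA1 UMI was then 40.6% (39.1 to 42.2) in the control library and 89.1% (88.2 to 89.99) in the TGF-β1 library; without thinning it was 69.7% and 97.96%. For SMAD7 the shares were 38.3% (36.8 to 39.9) and 63.8% (62.4 to 65.2), and 62.1% and 84.7% without thinning. For SKIL they were 63.1% (61.6 to 64.6) and 78.6% (77.4 to 79.8), and 87.6% and 94.4% without thinning. All 3 genes were therefore detected in more cells of the TGF-β1 library at equal depth. The libraries hold no cell type that should lack these genes, so the level that free RNA gives was not measured.

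The mediators split in the same way at equal depth. SMAD2 was detected in 71.2% (69.7 to 72.6) of cells without and 59.9% (58.5 to 61.3) with TGF-β1, against 91.6% and 83.6% unthinned. SMAD3 was detected in 38.4% (36.8 to 39.9) and 29.0% (27.7 to 30.4), against 61.1% and 48.5% unthinned. SMAD4 was detected in 45.8% (44.2 to 47.4) and 48.1% (46.6 to 49.5), and in 75.3% and 74.9% unthinned. The shares of the receptor-activated SMADs were thus lower with TGF-β1 both with and without thinning, while those of SMAD4 differed little, higher when thinned and lower when not.

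For the remaining brakes, the gap in detection was smaller. The share with SMURF2 was 81.7% (80.4 to 82.9) without and 87.4% (86.4 to 88.4) with TGF-β1, that with TGIF1 71.4% (70.0 to 72.8) and 78.6% (77.4 to 79.8), and that with SKI 45.02% (43.4 to 46.6) and 51.1% (49.6 to 52.6). Unthinned, these shares were 96.0% and 96.3%, 92.6% and 95.1%, and 73.4% and 76.7%. SMAD6 was found in 6.83% (6.06 to 7.67) and 6.63% (5.92 to 7.39) of thinned cells, and in 16.3% and 15.1% of unthinned cells. At this depth most cells gave no SMAD6 UMI in either library.

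**Figure D3:**
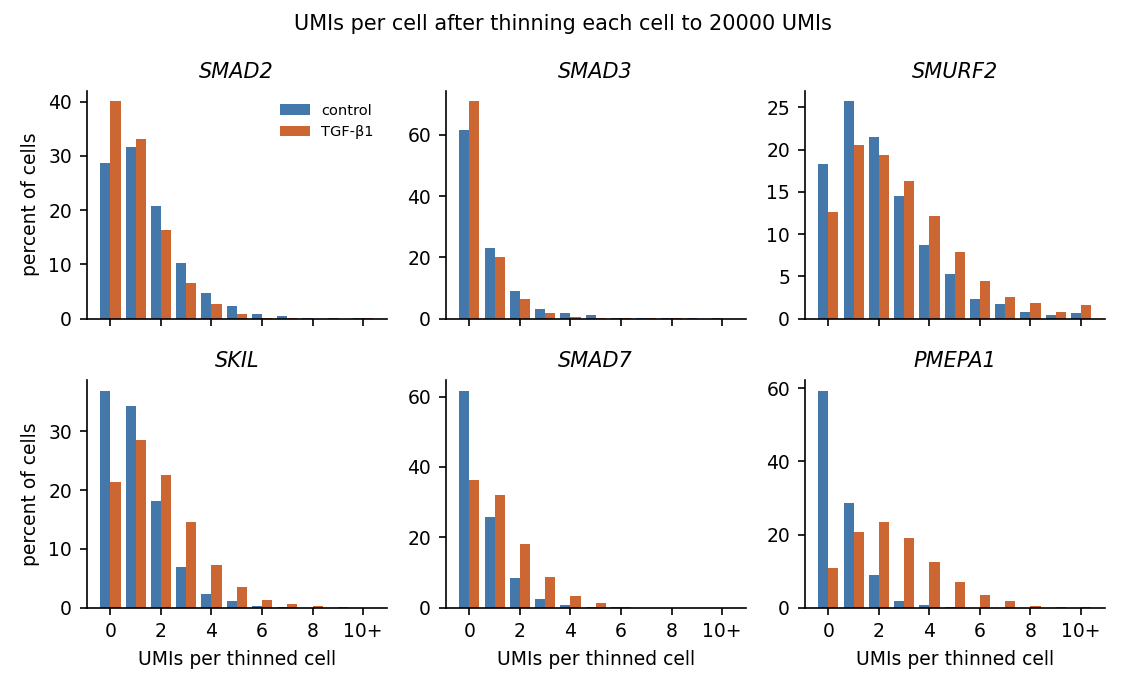
Percent of thinned cells (20000 UMIs each) by their number of UMIs of 6 of the genes, in the control library (blue, 3865 cells) and the TGF-β1 library (orange, 4513 cells). Zero UMIs is the commonest value for PMEPA1 in control cells, at 59.4%, and is found in 10.9% of TGF-β1 cells. For SMAD2 and SMAD3 the bars at 0 are higher in the TGF-β1 library.

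The PMEPA1 difference was spread over most of the cells rather than held by a few. The median thinned cell had 0 PMEPA1 UMIs in the control and 2 in the TGF-β1 library, the 90th percentile was 2 and 5 UMIs, and the highest cell had 13 and 12 UMIs. Cells with at least 3 PMEPA1 UMIs were 3.08% of control cells and 45.1% of TGF-β1 cells. The variance over the mean, which is 1 for pure sampling noise, was 1.44 and 1.27. Cells without a PMEPA1 UMI made up 10.9% of the TGF-β1 library, where sampling alone at the same mean would give 7.92%.

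SKIL and SMAD7 differed in the same direction by less. The median cell had 1 SKIL UMI in the control and 2 in the TGF-β1 library, and cells with at least 3 were 10.7% and 27.6%. For SMAD7 the medians were 0 and 1, and cells with at least 3 UMIs were 4.01% and 13.8%. Among the 10 genes, SMAD3 varied most between control cells relative to its mean, with a variance over the mean of 1.99, against 1.498 in TGF-β1 cells. SMURF2 had 1.81 and 1.90, and its highest cells had 24 and 25 UMIs. SMAD4 and SMAD6 lay near 1, between 1.02 and 1.10 in both libraries. SMAD6 averaged only 0.07 UMIs per thinned cell. At so low a mean this measure stays near 1 even where cells differ, so it does not show that SMAD6 was even across cells.

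Counted per cell, the number of brakes detected was higher in the TGF-β1 library. Each mean number is the sum of the separate shares given above, so it does not show that the genes occur jointly. The mean number of the 7 brakes with a UMI in a thinned cell was 3.47 in the control and 4.55 in the TGF-β1 library, with medians of 3 and 5. All 7 were seen in 17 control cells (0.440%) and 58 TGF-β1 cells (1.29%), and none in 25 (0.647%) and 1 (0.0222%). Of the 3 mediators, the mean number was 1.55 and 1.37. All 3 were seen in 533 control cells (13.8%) and 427 TGF-β1 cells (9.46%), and none in 390 (10.1%) and 737 (16.3%).

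Pairs of the genes were seen in the same cell about as often as their separate shares predict. Over the 45 pairs, the observed share of thinned cells with both genes, divided by the product of the shares, had a median of 1.03 without and 1.02 with TGF-β1. The highest control values were SMAD3 with SMAD6 at 1.25 (1.05 to 1.49, 127 cells), SMAD6 with SMAD7 at 1.22 (1.01 to 1.45, 123 cells), and SMAD6 with SKI at 1.16 (0.98 to 1.37, 138 cells). In the TGF-β1 library these 3 pairs had 1.06, 1.14 and 1.10. SMAD7 with SKI had 1.14 (1.07 to 1.21, 759 cells) in control cells and 1.03 in TGF-β1 cells. SMAD3 with SMAD7 had 1.14 (1.06 to 1.22) and 1.11 (1.05 to 1.18), so this pair of a mediator and its inhibitor was slightly above 1 in both libraries. All 9 pairs with PMEPA1 in TGF-β1 cells lay between 1.00 and 1.02. PMEPA1 was found in 89.1% of those cells, and a gene found in most cells leaves this ratio little room above 1. With the expected share taken within rebuilt clusters, the medians were 1.02 and 1.01. Values this close to 1 in sparse counts are given as a description only.

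**Figure D4:**
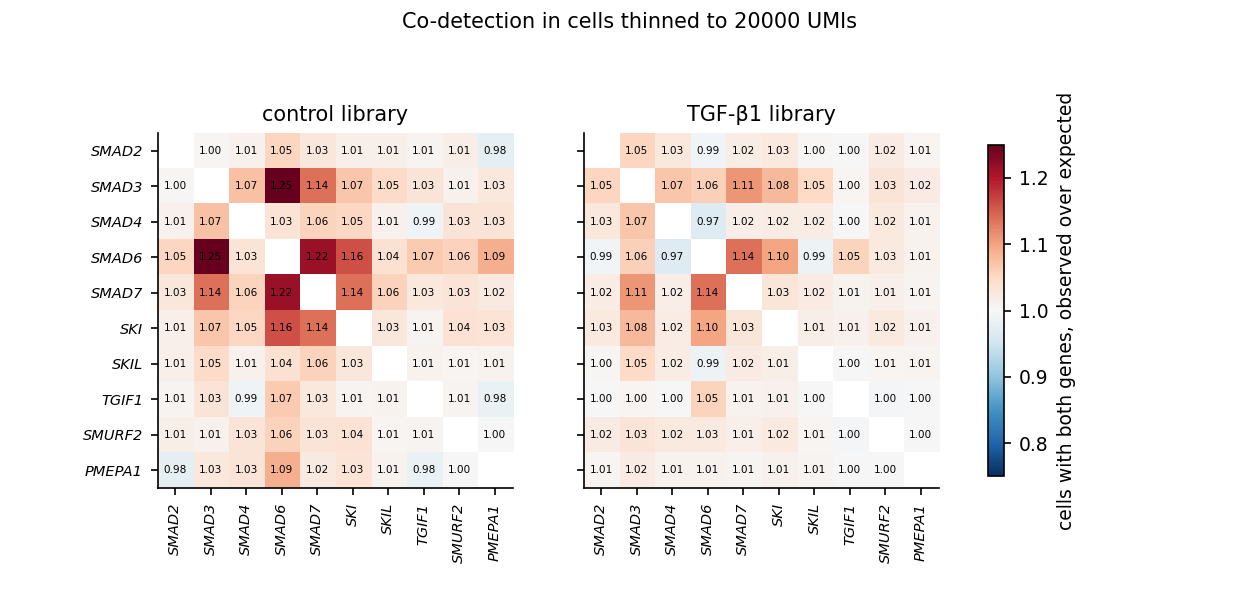
Co-detection of the 10 genes in thinned cells of the control library (left) and the TGF-β1 library (right). Each square gives the share of cells with UMIs of both genes over the product of their separate shares, with 1 in white, higher values in red and lower values in blue. The highest square is SMAD3 with SMAD6 in the control library at 1.25, and the lowest is SMAD4 with SMAD6 in the TGF-β1 library at 0.97.

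The direction was then followed in 7 clusters of cells rebuilt without the 10 genes. Clusters 0, 1, 2 and 3 held 625 to 1253 cells of each library. KRT7 and KRT8 were among the genes leading cluster 3, cluster 4 (162 control and 197 TGF-β1 cells) was led by MMP9, CFD and MMP1, cluster 5 (133 and 158) was cycling-like, and cluster 6 (110 and 58) was led by CA4, KRT1 and SUSD4. The mare from which each cell came was not used.

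PMEPA1 was more than 2-fold higher with TGF-β1 in all 7 clusters, with log2 ratios from 1.76 (1.67 to 1.85) in cluster 3 to 2.44 (2.16 to 2.73) in cluster 6. Its control level varied little between clusters, from 24.0 to 32.8 CPM, and its TGF-β1 level ranged from 110 to 140 CPM. SMAD7 was higher in all 7, from 0.88 (0.79 to 0.97) in cluster 2 to 1.38 (1.01 to 1.77) in cluster 4, where it had its lowest control level of 11.7 CPM against 37.2 CPM in cluster 0. SKIL was higher in all 7, from 0.53 (0.45 to 0.61) in cluster 3 to 0.91 (0.67 to 1.14) in cluster 6. The lowest ratio of both PMEPA1 and SKIL was thus in cluster 3, which is led in part by KRT7 and KRT8.

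SMURF2 was higher in all 7 clusters, from 0.23 (0.04 to 0.41) in cluster 6 to 0.50 (0.38 to 0.61) in cluster 5. TGIF1 was higher in all 7, from 0.16 (-0.01 to 0.33) in cluster 4 to 0.42 (0.26 to 0.59) in cluster 5, where its control level was lowest at 55.4 CPM. SKI was higher in 6 of 7, with -0.11 (-0.50 to 0.29) in cluster 4 as the exception. SMAD6 was lower in 5 of 7, and its interval left out 0 only in cluster 1, at 0.35 (0.02 to 0.69).

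SMAD2 and SMAD3 were lower in all 7 clusters, with intervals below 0 in 6. SMAD2 ranged from -0.77 (-1.05 to -0.50) in cluster 4 to -0.09 (-0.33 to 0.15) in cluster 6. SMAD3 was more than 2-fold lower in clusters 4 and 5, at -1.16 (-1.83 to -0.52) and -1.10 (-1.33 to -0.87), and stood at -0.06 (-0.48 to 0.34) in cluster 6. In cluster 4 the SMAD3 value rests on 67 and 30 UMIs. Cluster 6, the smallest, was thus the only cluster where neither gene was lower by more than counting error. SMAD3 was lower by less than SMAD2 in cluster 6 and in cluster 3. In cluster 3 they stood at -0.59 (-0.76 to -0.41) and -0.68 (-0.76 to -0.60), with overlapping intervals. SMAD4 was higher in 6 of 7, between -0.03 (-0.42 to 0.36) in cluster 4 and 0.33 (-0.02 to 0.69) in cluster 6.

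The genes also differed in how much their control level varied between clusters. SMAD3 varied 5.28-fold, from 9.53 CPM in cluster 4 to 50.3 CPM in the cycling-like cluster, and PMEPA1 varied 1.36-fold. Cluster 4 had the lowest control level of SMAD2, SMAD3, SMAD4, SMAD7, SKI, SKIL and SMURF2, with SMURF2 at 41.8 CPM there against 135 CPM in cluster 0. Its cells were also shallower than those of the whole libraries, with medians of 41672 UMIs in the control and 33756 in the TGF-β1 library, and the part of depth in these levels was not tested. TGIF1 did not follow them, with 77.2 CPM in cluster 4.

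**Figure D5:**
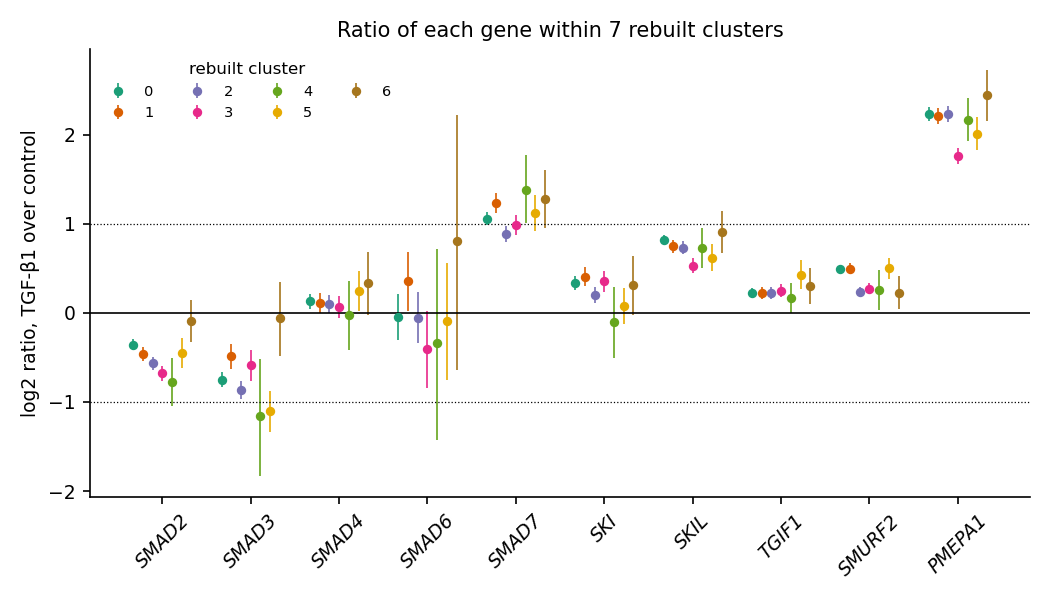
Log2 ratio of the TGF-β1 library over the control library for each gene within each of 7 rebuilt clusters (colours). Points are ratios of CPM, bars are exact 95% intervals for counting error, the solid line marks no difference and the dotted lines 2-fold. All 7 points lie above 1 for PMEPA1, above 0 for SMAD7, SKIL, TGIF1 and SMURF2, and below 0 for SMAD2 and SMAD3.

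Over the 14 combinations of cluster and library, the genes most like PMEPA1 in log2(CPM + 1) were SRD5A1, a steroid 5α-reductase (Pearson r of 0.988; 17.5 and 53.9 CPM in control and TGF-β1 cells), GNPNAT1, an enzyme of amino sugar synthesis (0.979; 78.5 and 160 CPM), and NET1, an exchange factor for RhoA (0.977; 22.1 and 74.5 CPM). Those most like SMAD7 were PAWR, a regulator of apoptosis (0.986; 98.8 and 183 CPM), OR2K2, annotated as an olfactory receptor (0.984; 9.53 and 16.0 CPM), and SSR1, a subunit of the translocon-associated complex (0.983; 230 and 304 CPM). Those most like SKIL were PAWR again (0.981), GALNT1, which starts O-glycans (0.976; 69.1 and 185 CPM), and ACVR1, a type I receptor of the BMP and activin family (0.973; 30.1 and 56.2 CPM). The 14 points come from 2 libraries, and each named gene is higher in the TGF-β1 library as a whole, so these values are a description and carry no test.

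Some of the genes are close neighbours in the horse genome. In the gene order of RefSeq (assembly TB-T2T, used for order only, with 10 of 10 genes matched by symbol), no protein-coding gene lies between SMAD3 and SMAD6, whose log2 ratios were -0.70 and 0.02. SMAD2 and SMAD7 have 2 protein-coding genes between them and log2 ratios of -0.53 and 1.05, and 14 separate SMAD4 from SMAD7. The genes of these pairs thus did not share their ratio, and neighbouring genes over the whole genome were not compared.

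The counts past 2-fold in the pathway lists that follow stand beside 3.45% of all genes higher and 3.46% lower, and their medians beside -0.01 over all genes. Apart from the target genes, each list had at most 2 members past 2-fold in a direction, and nothing is read from counts that small. Around the 10 genes, the SMADs of the BMP branch (SMAD1, SMAD5 and SMAD9, which carry signals of bone morphogenetic proteins) had 0 of 3 members past 2-fold and a median log2 ratio of 0.10. SMAD1 was lower with TGF-β1, at 33.9 and 22.0 CPM, a log2 ratio of -0.62 (-0.68 to -0.57) that lay between those of SMAD2 and SMAD3. SMAD5 and SMAD9 were at 0.10 (0.06 to 0.15) and 0.21 (0.16 to 0.26).

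Of 22 other ligases, deubiquitinases and receptor-level regulators, 21 were found, and 1 was more than 2-fold higher and 1 more than 2-fold lower, with a median of 0.14. The higher was LDLRAD4, a membrane protein related to PMEPA1 that also binds SMAD2 and SMAD3, at 55.8 CPM in control and 238 CPM in TGF-β1 cells. Its log2 ratio of 2.09 (2.06 to 2.12) was close to the 2.13 of PMEPA1, and its share of thinned cells was 51.6% (50.03 to 53.2) and 92.2% (91.4 to 92.9). The lower was CAV1, the caveolar coat protein through which TGF-β receptors are taken up, at 101 and 39.0 CPM (-1.37, -1.41 to -1.33).

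Of 24 other nuclear partners of SMADs, 22 were found and 21 passed 1 CPM, with a median of 0.03. RUNX1, a DNA-binding factor that works with SMADs, was the 1 member past 2-fold, at 280 and 671 CPM (1.26, 1.25 to 1.27). Of 13 ligands and receptors, 12 were found and 11 passed 1 CPM, with a median of -0.08. The ligand TGFB3 was higher, at 4.97 and 10.5 CPM (1.07, 0.97 to 1.18). The coreceptor TGFBR3 was lower, at 7.85 and 1.88 CPM (-2.06, -2.22 to -1.91), as was the activin receptor ACVR2A, at 53.9 and 20.3 CPM (-1.41, -1.46 to -1.36).

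Of 21 known SMAD target genes outside the feedback set, 20 were found, of which 3 were more than 2-fold higher (3.45% of all genes were) and 0 more than 2-fold lower (3.46%), with a median of 0.19. By counting error alone, 13 of the 20 were higher and 6 lower, beside 39.5% and 42.2% of the genes whose mean reached 1 CPM. IL11, a profibrotic cytokine, was at 150 CPM in control and 1993 CPM in TGF-β1 cells (3.73, 3.72 to 3.75). TGFBI, a matrix protein named for its induction by TGF-β, was at 401 and 2005 CPM (2.32, 2.31 to 2.33), and fibronectin, FN1, at 1934 and 6087 CPM (1.65, 1.65 to 1.66). PMEPA1 and LDLRAD4 thus lay between TGFBI and FN1 in the size of their log2 ratio, and SMAD7 and SKIL lay below all 3 of these targets.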

How the data were processed

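The authors deposited UMI counts per gene and cell barcode for 1 droplet library of the control and 1 of the TGF-β1 group, aligned by Cell Ranger to the EquCab3.0 genome with Ensembl genes. Its version is 7.1.0 in the methods and processing notes and 8.0.1 in the deposited headers. Values were whole numbers, not normalized, for 4384 and 5124 barcodes. Cells given MFGE8 were not analysed here.

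The cell filter was that of the study: 20000 or more UMIs, 3500 or more genes and less than 4% of UMIs on mitochondrial genes. Assignment of cells to mares and removal of doublets rest on the reads and were not repeated, so doublets remain. UMIs were summed per library and scaled to CPM in Python 3.11.15 (numpy 2.4.6, scipy 1.17.1, pandas 2.3.3), with no pseudocount in ratios. Intervals are exact (Clopper-Pearson) at 95%. The depth of 210497250 and 219731144 UMIs makes them narrow. Clusters were rebuilt in Seurat 5.3.0 under R 4.3.3 (2000 variable genes, from which the 2 that are among the 10 genes were left out, 30 dimensions, canonical correlation integration, resolution 0.5), differ from those of the study and were not matched to them.

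The genes and lists were chosen with earlier results of these data known. The text names all 10 genes, of each pathway list every gene past 2-fold with a mean of at least 1 CPM, or the 5 with the largest absolute log2 ratio where none or more than 5 were, and the 3 genes most correlated with each of the 3 genes that differed most. Cell type and cycling markers served as checks and were named outside this rule. Ratios and intervals were tested on simulated data. Figures were drawn in matplotlib 3.10.9. The alternatives were other cell filters, scalings, CPM and fold limits, thinning depths and clusterings. The study separated the cells of its pooled libraries by animal and tested genes in edgeR within its clusters. That test was not repeated because cells were not assigned to mares here.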

Additional observations from a re-analysis of the deposited data

How the results depend on the processing

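No paired analysis was possible because the cells of the 4 mares, which are in both libraries, were not assigned to their mare here, a step that rests on the reads. The log2 ratio of each of the 10 genes was computed under 11 alternatives, and 9 genes kept their direction in all of them. SMAD6, whose interval includes 0, turned to -0.0014 with all deposited barcodes and to -0.0025 when both libraries were given the same cluster shares. The median of the 10 ratios was 0.18 in cells of fewer than 40000 UMIs and 0.31 in the deeper cells, bands chosen after seeing the data. The number more than 2-fold higher was 2 under every cell filter and scaling, and at 1.5-fold it was 3, with 1 lower. Over all genes, the counts higher and lower were 418 and 419, against 176 and 163 at a mean of 10 CPM, 1141 and 1216 without a minimum, and 926 and 1134 at 1.5-fold. The median of all genes stayed between -0.014 and 0.012. Thinning sets the shares: at 10000 UMIs per cell PMEPA1 was found in 23.7% and 68.9% of control and TGF-β1 cells. The median co-detection ratio ranged from 1.02 to 1.07 in control and from 1.01 to 1.03 in TGF-β1 cells. SMAD3 was lower in 83.3% of 6 clusters at resolution 0.3 and 90.9% of 11 at resolution 0.8. Without integration, 1 cluster held at least 50 cells of each library. SMAD6 had the widest intervals, on 764 and 811 UMIs in all.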
